A study of Drosophila melanogaster with 9 samples.

Results

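The distal, post-meiotic region of the Drosophila melanogaster testis was compared with the middle, meiotic region, gene by gene. The comparison holds 6 of the 9 samples of the study, the 3 labelled as post-meiotic cells and the 3 labelled as meiotic cells, and the 3 mitotic samples of the apical tip served to estimate the spread and are given beside the genes they bear on. All samples were total RNA of virgin males of the wild-type TEMPE T strain aged 6 to 10 days, with no other treatment, and each biological replicate pooled 250 to 500 testes from which the seminal vesicles had been removed. The post-meiotic samples were basal ends detached from the testis, and were rich in late spermatids and sperm while poorer in spermatocytes. The meiotic samples were cells pressed out of the middle of the tube after both ends had been removed, rich in spermatocytes. The stage of the germ cells and the way a region was collected therefore cannot be told apart, and a region is an enrichment and not a pure cell type. The study's text describes the meiotic sample as free of the testis sheath.

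In the fly testis germ cells move along a closed tube, from stem cells at the tip through dividing spermatogonia and large growing spermatocytes to spermatids that elongate at the base. Spermatocytes transcribe most of what the spermatids will use, nearly all transcription stops around the meiotic divisions, and many messages are stored and translated during elongation. Each germ cell cyst is wrapped in somatic cyst cells, and the tube has a wall of muscle, pigment cells and basement membrane and ends in an epithelium that holds the sperm heads.

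Across the 18769 probe sets tested, 12312 or 65.6% differed between the regions at an adjusted p under 0.05 (limma fitted to the 9 arrays together, two-sided test, p adjusted by Benjamini-Hochberg). Rises and falls differed in size. Of the probe sets called, 7100 (37.8%) were higher and 5212 (27.8%) were lower in the post-meiotic region, but with a change of at least 1 on the log2 scale, which is 2-fold, 1784 (9.51%) were higher and 2808 (15%) lower. With a change of at least 4, 85 (0.453%) were higher and 113 (0.602%) lower. Many small rises were of dim probe sets. By the level of the brighter region, 563 rises and 85 falls lay at or under 5, and 2188 rises and 335 falls between there and 6.36. The split of the calls moved with the scaling, with 57.7% rises as deposited, 43% after the medians of the arrays were set equal (centring) and 50.8% after cyclic loess. Among calls of at least 1 the same shares were 38.9%, 32.2% and 49.3%. Over all probe sets the median change was 0.13 as deposited, -0.02 centred and 0.01 after loess, and changes below are to be read against it. The arrays of the 2 regions did not overlap for 13029 probe sets (69.4%), and an exact permutation test of 3 arrays against 3 cannot go under p = 0.1, so only the fit across all genes was used.

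The values are log2 hybridization intensities normalized between arrays, so a change is relative to the other transcripts of the array. Their distribution still differed between the regions. The upper quartile was 8.496, 8.394 and 8.284 on the post-meiotic and 8.928, 8.980 and 8.942 on the meiotic arrays. The median and the lower quartile were instead higher on every post-meiotic array than on any meiotic array. The cause of these differences was not tested. In such bulk samples fewer cells of a type and less RNA per cell cannot be told apart. Replicates correlated at r = 0.993 to 0.996 in the post-meiotic and 0.997 to 0.998 in the meiotic region, across probe sets that are not independent, and the median SD of a probe set was 0.135 in the post-meiotic and 0.0833 in the meiotic region. Control probe sets read the 3′ end of a message brighter than its 5′ end on all 6 arrays. For 1 of the 2 actin controls, that of Act5C, the difference was 2.63 to 3.02 in the post-meiotic and 4.25 to 4.39 in the meiotic arrays, and for GAPDH it was 1.42 to 1.64 and 0.75 to 0.95 in that order. These differences ran in opposite directions, the other controls overlapped between the regions, and their part in the results was not tested.

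To sort genes into lost, kept and gained, a floor was set at a log2 intensity of 6.36, the 90th percentile of 185 probe sets of chemoreceptor genes, which belong to sensory organs. By this floor 888 probe sets (4.73%) were lost, that is called lower and at or under the floor in the post-meiotic region only. A further 3710 (19.8%) were lower but above the floor in both, 1877 (10%) were kept, with a 95% interval of the change inside 0.5 in either direction, 2787 (14.8%) were higher above the floor, and 1303 (6.94%) were gained. The 7930 probe sets under the floor in both regions make up 42.3%, and 274 (1.46%) met no rule. The number gained depended on the scaling and was 798 after loess. Of the 888 lost probe sets 789 were above the floor in the mitotic region too, with a median of 8.11 there. Of the gained ones 907 (69.6%) were at or under the floor in the mitotic region as well, which leaves 396 that were above it at the tip and at the base but not in between.

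**Figure D1:**
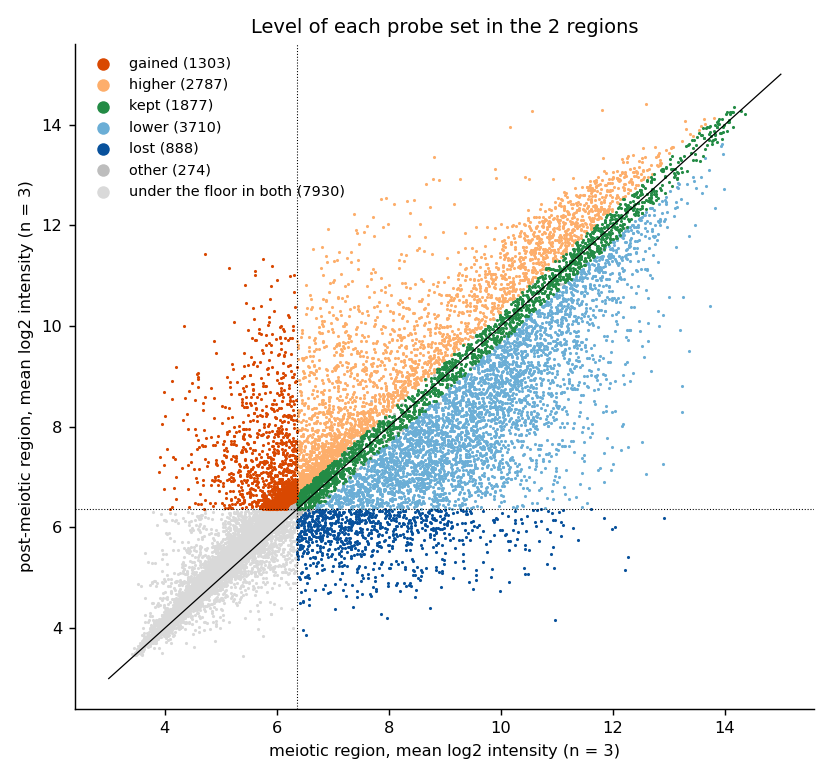
Mean log2 intensity of each probe set in the post-meiotic region (vertical axis) against the meiotic region (horizontal axis), 3 arrays each, coloured by class, with dotted lines at the floor of 6.36 and a solid line of equal level. The 888 lost probe sets lie below the horizontal dotted line, the 1303 gained ones left of the vertical one, and the 1877 kept ones along the line of equal level up to the brightest.

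The largest falls were of genes far above the floor in the meiotic region, and most of them were lost. CG34434, an X-linked gene, read 5.09, 5.28 and 5.11 in the post-meiotic arrays and 12.18, 12.31 and 12.18 in the meiotic arrays, a fall of 134-fold (log2 change -7.06, SE 0.09, adjusted p = 8.4e-14). cad, a homeobox gene that stands in the gut list for its role in the intestine, read 4.80, 5.57 and 5.21 in the post-meiotic and 10.91, 11.04 and 10.91 in the meiotic arrays (54.2-fold lower). Pkd2, a cation channel needed in sperm, fell by 5.64 on the log2 scale, with post-meiotic arrays at 5.99, 6.69 and 5.91 and meiotic arrays at 11.70, 11.96 and 11.86. Of the 15 largest falls, the others named in the annotation were CG32259, nsr, CG4021, CG18518, cocoon, CG42857, holn1, CG17580, CG5681, CAH14, a carbonic anhydrase, ATPsynbetaL and tbrd-2, with changes between -6.85 and -5.24. CG4021 and cocoon stayed above the floor in the post-meiotic region, with means of 7.27 and 7.06. For each of these genes the post-meiotic arrays lay below every meiotic array.

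Regulators of spermatocyte transcription fell together. The testis-specific meiotic arrest proteins and TAFs switch on the genes of meiosis and sperm building in spermatocytes. Of 16 genes of this list, 16 fell and 0 rose, with a median change of -3.18, against 36.2% called lower and 37% called higher among 11981 genes, taken with 1 probe set each (73.2% called in all). Of these, 15 fell by at least 1, a size that 20.4% of all genes reached, and 8 were lost, as were 5.89% of all genes. The shares of all genes called higher and lower are the background for every list below. vis, a homeobox gene of the arrest class, read 6.91, 6.99 and 6.79 in the post-meiotic and 11.94, 11.83 and 11.78 in the meiotic arrays (change -4.95, SE 0.09, adjusted p = 3.3e-13), and the zinc finger gene kmg read 5.86, 5.81 and 5.53 and 10.12, 10.12 and 10.13 in that order. For nht, the testis copy of a TAF4 subunit, the change was -4.23, and for wuc, a member of the arrest complex, -4.37. Not all reached the floor. sa and can, 2 testis TAFs used as spermatocyte markers, still read 8.55 and 8.98 as means in the post-meiotic region, against 11.20 and 10.69 in the meiotic region.

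Genes of the divisions went the same way. Of 34 genes of chromosome segregation, a list chosen after values were seen, 33 fell, 28 of them by at least 1, and 18 were lost (median -2.51). borr, which encodes a subunit of the chromosomal passenger complex, read 6.32, 6.33 and 6.25 in the post-meiotic and 11.03, 11.03 and 11.07 in the meiotic arrays (change -4.74, SE 0.08, adjusted p = 2.5e-13). gwl, the Greatwall kinase of mitotic entry, fell by 4.61, Mis12 of the kinetochore by 4.49, lds by 4.52 and Grip71 of the spindle by 4.44. In the list of meiotic division 13 of 14 fell (median -1.91). fzy, which activates the anaphase-promoting complex, read 5.99, 5.98 and 5.92 in the post-meiotic and 10.93, 10.84 and 10.71 in the meiotic arrays, a drop of 29.1-fold. Rbp4, which holds back translation in spermatocytes, and the cyclin CycB3 fell by 4.73 and 4.24. The meiotic arrays of each of these genes, named for their large changes, lay above every post-meiotic array. The arrays of the 2 regions did not overlap for 69.4% of all probe sets.

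DNA repair genes, many of which act in the premeiotic and meiotic nucleus, also fell in most cases. Of 26 genes of this list, also chosen after values were seen, 22 fell, 13 were lost and 1 rose (median -1.96). The mismatch repair genes Msh6 and Pms2 fell by 4.81 and 4.23, CtIP, which acts in the resection of breaks, by 4.24, and Nse4 of the Smc5/6 complex by 4.23. Msh6 read 5.22, 4.80 and 5.03 in the post-meiotic and 9.70, 9.91 and 9.89 in the meiotic arrays. Of the spermatogonial list 14 of 15 fell, with medians of 9.49 in the mitotic, 8.61 in the meiotic and 5.57 in the post-meiotic region, among them esg by 3.47, tut, a partner of bam, by 3.20, and spn-E, a helicase of the piRNA pathway, by 2.92. The replication list was mixed, with 7 of 14 lower, 1 higher and a median of -0.33, led by dup, which licenses origins (-2.61), and PCNA, the clamp of the replication fork (-2.51).

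**Figure D2:**
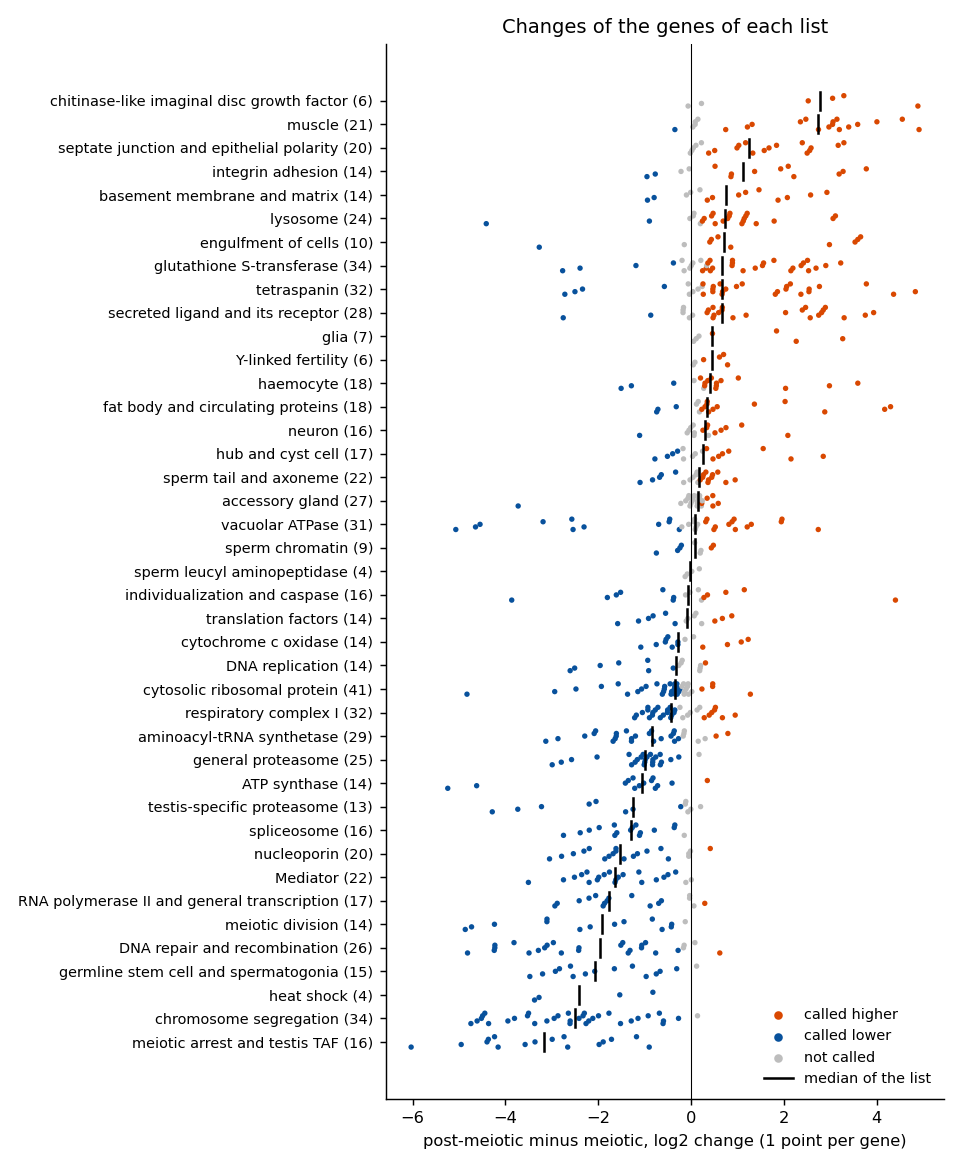
Log2 change, post-meiotic minus meiotic, of each measured gene (1 point per gene, brightest probe set) in the lists named at the left with their number of genes, ordered by the median (black bar). Points in orange passed the test as higher, in blue as lower, and grey points did not pass. Lists of spermatocyte regulators, divisions and most core machinery lie toward the bottom. Sperm chromatin, sperm tail and Y-linked lists lie further up, and wall, junction and engulfment lists toward the top.

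The core machinery of transcription and RNA processing was lower as well, by smaller amounts and mostly without reaching the floor. Of 17 genes of RNA polymerase II and its general factors 13 fell and 1 rose (median -1.77), and of 22 Mediator genes, which link activators to the polymerase, 20 fell (median -1.63). TfIIB, a general initiation factor, read 8.97, 8.99 and 8.87 in the post-meiotic and 11.78, 11.92 and 11.93 in the meiotic arrays (change -2.93, SE 0.08, adjusted p = 6.2e-12). Cdk7, the kinase that frees the polymerase from the promoter, fell by 2.88, and MED4 by 3.50, to under the floor. Of 16 spliceosome genes 15 fell (median -1.28), with Sf3b2 at -2.75 and SmE at -2.39, and of 20 nucleoporins, the proteins of the nuclear pore, 16 fell and 1 rose (median -1.53), with Nup93-1 at -3.05. The Mediator and nucleoporin lists were chosen after values were seen. The medians of these 4 lists kept their sign under each alternative run, between -1.92 and -0.89.

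Genes for making proteins changed by different amounts. Nearly the whole mitochondrial ribosome fell, with 67 of 69 genes lower, 0 higher and a median of -1.54. mRpS26 read 6.96, 7.17 and 7.04 in the post-meiotic and 10.13, 10.12 and 10.10 in the meiotic arrays. The cytosolic ribosome changed less, with 28 of 41 lower, 4 higher, 12 kept and a median of -0.34; the difference between the 2 lists was not tested. Its largest falls were of duplicate genes, RpL37-2 (-4.83), RpS5b (-2.94), RpS10a (-2.48) and RpL24-like (-1.93), and probe sets of near-identical copies may share signal. Translation factors had a median of -0.09, which loess turned to 0.07, with 6 lower, 3 higher and 5 kept of 14. The cap-binding protein gene eIF4E1 fell by 1.13 and eIF5, which acts in start codon choice, rose by 0.88. Of 29 aminoacyl-tRNA synthetases, which charge tRNAs and were added after values were seen, 22 fell and 2 rose (median -0.85).

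Protein turnover and stress genes were lower too. Of 25 general proteasome genes 24 fell and 0 rose (median -0.99). All 4 heat shock genes with a named probe set, of 15 listed, fell (median -2.41). Hsp26, a small heat shock protein of germ cells, read 9.77, 9.99 and 10.02 in the post-meiotic and 13.12, 13.28 and 13.21 in the meiotic arrays (9.68-fold lower), and Hsp68 changed by -3.37. The 3 testis betaNACtes genes, added after values were seen and X-linked relatives of a chaperone that meets new proteins at the ribosome, all went under the floor, with betaNACtes1 at 4.83, 4.59 and 4.82 in the post-meiotic and 9.92, 10.00 and 10.01 in the meiotic arrays.

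Complexes of the inner mitochondrial membrane fell in part. Of 14 ATP synthase genes 13 fell and 1 rose (median -1.07), of 32 genes of complex I 19 fell and 7 rose (median -0.43), and of 14 of cytochrome c oxidase 8 fell and 4 rose (median -0.28). COX6AL2 and COX6AL, relatives of 1 oxidase subunit, rose by 1.23 and 1.08, and ATPsynepsilonL fell by 4.62. Rises and falls thus stood side by side within 1 complex. Pink1, a kinase of mitochondrial quality control, rose by 0.86.

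Sperm-building transcripts stayed, in contrast, at or near their meiotic level. In the list of sperm tail and axoneme genes 7 of 22 were kept, 11 passed the test as higher and 5 as lower, 0 and 1 of them by at least 1 (median 0.17). A kept gene can also pass the test, since its change can be small and still larger than its error. Of 9 sperm chromatin genes 6 were kept, and their median of 0.08 turned to -0.07 with centred arrays. All 4 measured S-Lap genes, which encode abundant sperm proteins, were kept and none passed the test, and S-Lap7 read 14.02, 14.02 and 13.94 in the post-meiotic and 13.98, 14.01 and 13.94 in the meiotic arrays. Across all genes 12.9% were kept.

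The kept genes named are those with the highest mean level. CG33340 led them, at 14.35, 14.37 and 14.33 in the post-meiotic and 14.21, 14.13 and 14.16 in the meiotic arrays, with an interval of the change from -0.01 to 0.38. CG8701, CG17376, CG10252, Mst84Db, a sperm tail protein gene, CG12699, CG9016, CG4836 and CG2127 followed, all with mean post-meiotic levels over 14. Of the others seen after their values were known, the chromatin gene Mst77F read 13.94 in the post-meiotic and 14.15 in the meiotic region as means, and the sperm genes ocn and Mst98Ca read 13.99 and 13.83, and 13.94 and 13.97, in the same order.

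Some spermatid genes rose above the meiotic level while others fell. t-cup, of the cup genes transcribed in elongating spermatids, read 12.17, 12.02 and 12.16 in the post-meiotic and 10.98, 10.92 and 10.89 in the meiotic arrays (change 1.19, SE 0.09, adjusted p = 9.9e-08), and schuy, a comet gene, rose by 0.77. In the comet and cup list as a whole 4 of 15 (26.7%) were higher and 7 (46.7%) lower, against 37% and 36.2% of all genes. The list median was -0.24 as deposited and 0.01 after loess. The sperm tail genes dj and djl rose by 0.95 and 0.75, whereas the dynein genes Dic61B and Dhc98D fell by 1.10 and 0.68. Of 6 Y-linked fertility genes 4 rose and none fell (median 0.44), but 2 rose after centring and 3 after loess. ORY read 8.37, 8.58 and 7.89 in the post-meiotic and 7.74, 7.52 and 7.22 in the meiotic arrays and Pp1-Y2 rose by 0.70, while the rise of kl-3, an axonemal dynein (0.61, adjusted p = 0.021), was lost after centring (adjusted p = 0.084) and after loess (adjusted p = 0.2), and without post-meiotic replicate 2 (adjusted p = 0.095).

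Individualization, in which the syncytial spermatids are separated and stripped of cytoplasm, needs caspases and a Cullin-3 ubiquitin ligase. The 3 ligase genes named here rose. klhl10, its substrate adaptor, read 11.65, 11.29 and 11.07 in the post-meiotic and 10.21, 10.24 and 10.13 in the meiotic arrays (change 1.14, adjusted p = 6.3e-06), Roc1b rose by 0.75 and Cul3 by 0.35, the last not after centring (adjusted p = 0.066). Of the caspase genes in the list Dronc, an initiator, fell by 1.52 and its activator Dark by 1.80, while Dredd changed by -0.12 and Bruce, a caspase inhibitor, by 0.22, neither of which passed. These 3 ligase genes were chosen after values were seen, and the list as a whole had 5 higher and 7 lower of 16 (median -0.07). Without probe sets whose names end in _s_at, _x_at or _a_at, as that of Cul3 does, 7 members are left. Of these 1 rose and 5 fell (median -1.52). The extremes of the full list were scaf, a serine protease homologue that rose by 4.40 from under the floor, and blanks, a testis RNA-binding gene that fell by 3.86.

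**Figure D3:**
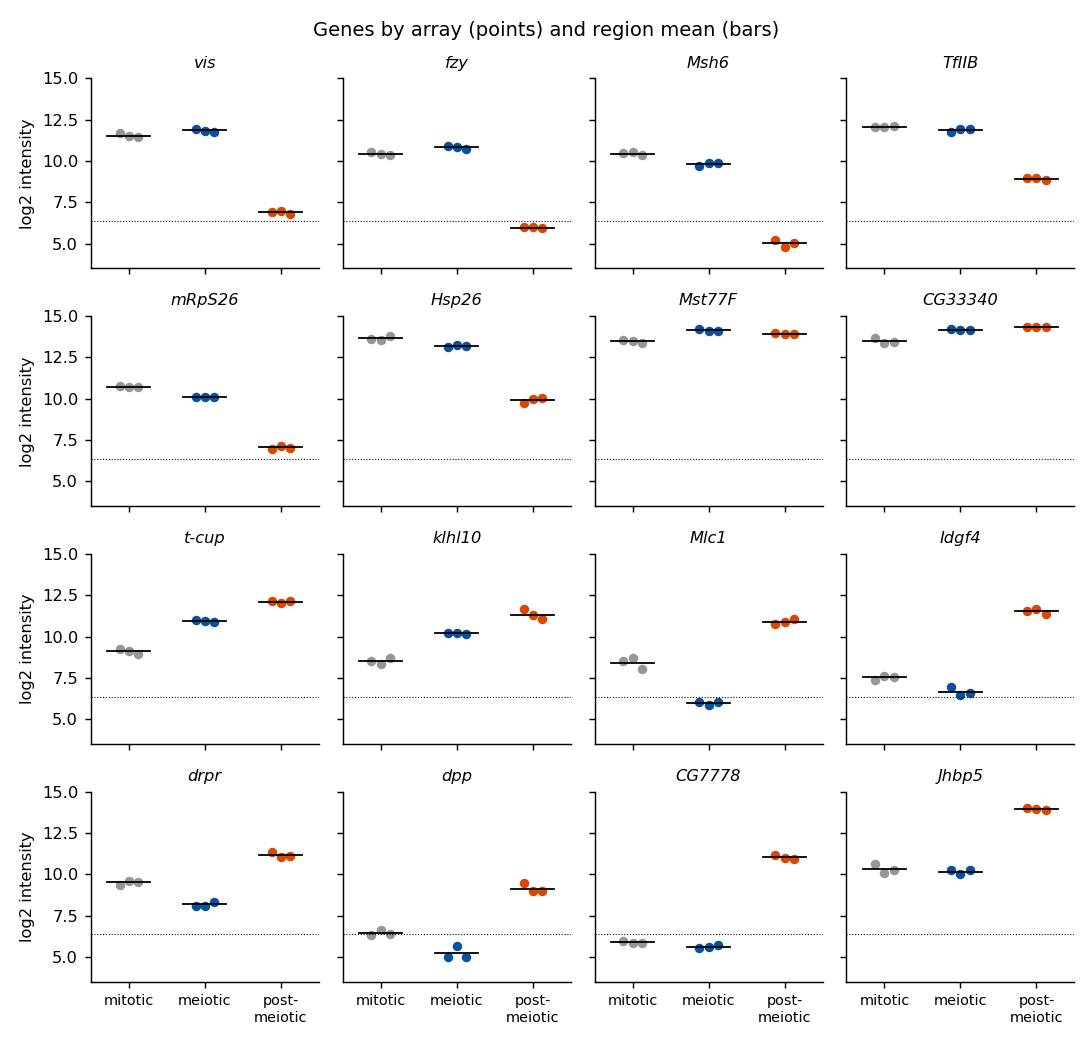
Log2 intensity of 16 genes on each array (points) with the region mean (bar), in the order mitotic, meiotic and post-meiotic, and the floor of 6.36 as a dotted line. In the upper 2 rows the first 6 genes drop between the meiotic and the post-meiotic arrays while Mst77F and CG33340 hold their level, and in the lower 2 rows the post-meiotic arrays are the highest for all 8 genes.

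Where a protein complex has a general subunit gene and testis relatives named after it, the members often changed by different amounts. The pairs were chosen by their names after values were seen, so the counts describe them only. Of 38 such relatives 24 fell, 6 rose and 8 did not pass, and of their 28 general counterparts 17 fell, 5 rose and 6 did not pass. Among all genes 36.2% fell and 37% rose. The vacuolar ATPase, a proton pump, showed the widest gap. Its proteolipid genes Vha16-5, Vha16-3, Vha16-4 and Vha16-2 fell by 5.07, 4.64, 3.19 and 2.57, while Vha16-1 rose by 0.88. Likewise VhaAC39-2 fell by 4.55 against a change of 0.11 for VhaAC39-1, and Vha55 and Vha44 rose by 2.74 and 1.96. Vha16-5 read 6.22, 6.48 and 6.72 in the post-meiotic and 11.46, 11.66 and 11.52 in the meiotic arrays, and Vha55 averaged 10.67 and 7.94 in that order. For the complex as a whole 13 of 31 genes (41.9%) rose and 11 (35.5%) fell, near the 37% and 36.2% of all genes.

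Energy and proteolysis complexes showed further splits. ATPsynbetaL, the relative of the catalytic subunit of ATP synthase, read 5.88, 5.77 and 5.84 in the post-meiotic and 11.00, 11.08 and 11.13 in the meiotic arrays, while ATPsynbeta changed by 0.35. Taf12L fell by 4.96 and Taf12 changed by 0.06 (adjusted p = 0.72). In parts of the respiratory chain the relative rose where the general gene fell, as with COX7AL (0.25) beside COX7A (-1.08), SdhCL (0.30) beside SdhC (-0.77) and ND-B14.5AL (0.95) beside ND-B14.5A (-0.42). Cyt-c1 and SdhB went the other way and rose by 1.29 and 0.67, while Cyt-c1L and SdhBL fell by 0.83 and 0.44. Proteasome relatives varied widely. Some were near their meiotic level, such as Prosbeta5R1 (-0.01, adjusted p = 0.96) and Prosalpha6T (-0.22). Others lay between, such as Rpt3R (-1.25) and Prosbeta4R1 (-2.05), or far below it, such as Prosalpha4T1 (-4.28) and Prosbeta2R2 (-3.73).

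**Figure D4:**
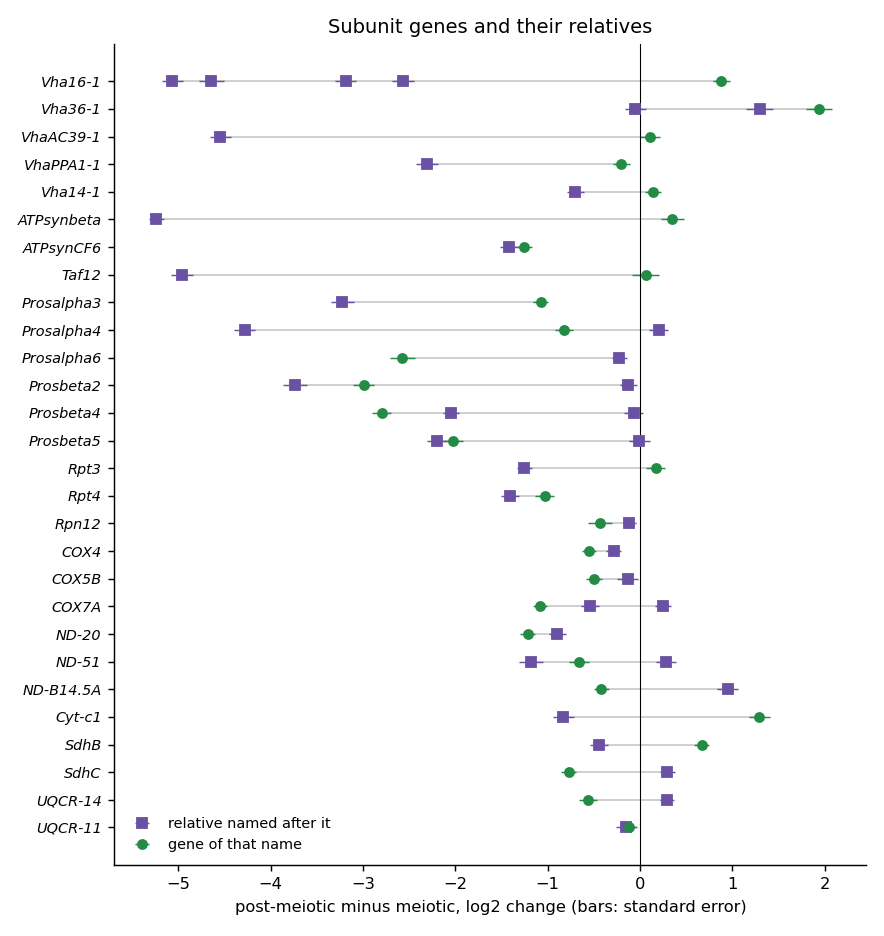
Log2 change, post-meiotic minus meiotic, of 28 subunit genes (green circles) and of the relatives named after them (purple squares), with bars for the standard error of the change. Relatives of Vha16-1, VhaAC39-1, ATPsynbeta and Taf12 lie far left of the gene they are named after, while for Prosbeta2 and Prosbeta5 1 relative lies near 0 and 1 near or left of the general gene.

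Genes of muscle were higher. Of 21 measured genes of 27 listed, 16 rose, 15 of them by at least 1, and 1 fell (median 2.74), against 11.8% of all genes that rose by at least 1. Only 7 members are left without probe sets whose names end in _s_at, _x_at or _a_at, here called suffixed. Of these 3 rose, with a median of 0.15, so the median rise depends on the suffixed probe sets, that of Mlc1 among them. A suffix does not by itself show that a probe set reads another gene, and cross-hybridization was not tested. For this and the other somatic lists the stage and the collection of the samples cannot be told apart. Mlc1, a myosin light chain, read 10.78, 10.86 and 11.07 in the post-meiotic and 6.04, 5.89 and 6.06 in the meiotic arrays, 30.0-fold higher (change 4.91, SE 0.14, adjusted p = 1e-11). Mf, a protein of the thick filament, rose by 4.55, the tropomyosin gene Tm2 by 2.47 and Prm, which encodes paramyosin, by 2.74 on its brightest probe set and 4.79 on another. Mlc2, another myosin light chain, read 8.34, 8.41 and 8.87 in the post-meiotic and 4.49, 4.40 and 4.72 in the meiotic arrays. The mitotic region lay between, at 8.42 for Mlc1, and the list medians of the 3 regions were 7.48 in the mitotic, 5.76 in the meiotic and 8.65 in the post-meiotic region. Against the mitotic region, in a comparison that uses the same post-meiotic arrays, 19 of 21 were higher, with a median of 1.57, against 46.3% of all genes higher.

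Epithelial genes followed. Septate junctions seal epithelia, and of 20 genes for them and for cell polarity 15 rose, 12 of them by at least 1, and none fell (median 1.25). Without suffixed probe sets 6 of 10 rose (median 1.08). Gli, a protein of the corners between 3 cells, read 9.06, 8.78 and 8.70 in the post-meiotic and 5.66, 5.40 and 5.61 in the meiotic arrays (change 3.29, adjusted p = 8.1e-11). cora, of the junction scaffold, rose by 2.55, and baz, which marks the apical side, by 2.50. nrv1, a sodium pump subunit, rose by 3.17, to a level 0.51 above the mitotic region. Of 7 innexins, the gap junction proteins of insects, Inx2, Inx3 and ogre rose by 3.50, 3.25 and 1.54, whereas Inx6 and the germline innexin zpg were lost (-2.77 and -0.97).

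Genes of attachment to the matrix rose in part. Of 14 genes of basement membrane 9 rose and 2 fell (median 0.74), and without suffixed probe sets 5 of 8 rose (median 0.40). LanB2, a laminin chain, read 8.63, 8.66 and 8.69 in the post-meiotic and 6.02, 6.12 and 6.12 in the meiotic arrays, and SPARC, which binds collagen, and the collagen IV genes Col4a1 and vkg rose by 2.92, 2.07 and 1.46. Of 14 genes of integrin adhesion, added after values were seen, 10 rose and 2 fell (median 1.12). Over the members left without suffixed probe sets the median was -0.04. mys, the main beta integrin, rose by 3.77, its partner chains scb and if by 3.27 and 2.09, and Vinc, which links integrins to actin, by 3.19.

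Genes for engulfing and digesting other cells rose in most cases. Of 10 engulfment genes, added after values were seen, 8 rose and 1 fell (median 0.72), against 4 and 1 of the 6 left without suffixed probe sets (median 0.42). Among all genes 37% rose and 36.2% fell. drpr, the receptor that recognises dying cells, read 11.32, 11.04 and 11.10 in the post-meiotic and 8.10, 8.09 and 8.34 in the meiotic arrays (change 2.98, SE 0.11, adjusted p = 5.5e-11), and its adaptor ced-6 read 8.20, 7.92 and 7.74 and 4.17, 4.61 and 4.49 in that order. The scavenger receptor crq rose by 3.59 and orion, a secreted signal for engulfment by glia, by 3.65, while pall, an F-box gene of the same process, fell by 3.27. Of 24 lysosomal genes 18 rose and 2 fell (median 0.74), and 11 and 2 of the 16 left by the same restriction (median 0.50). The cholesterol carrier Npc2a rose by 3.11 and the protease CtsB by 1.79, but the galactosidase gene Gal fell by 4.41 to under the floor. Blood cells also express drpr and crq. Of their defining markers He was under the floor, at 4.69 in the post-meiotic and 4.63 in the meiotic region as means, NimC1 averaged 6.44 and 5.90 in that order, and Hml read 7.57 in the post-meiotic and 7.30 in the meiotic region and did not pass (adjusted p = 0.067). Of the 18 genes of the haemocyte list, which itself holds drpr and crq, 13 rose and 3 fell (median 0.40), with a summed linear intensity of 5064 to 5786 on the post-meiotic and 2173 to 2293 on the meiotic arrays, and its part in the rise of engulfment genes was not tested.

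**Figure D5:**
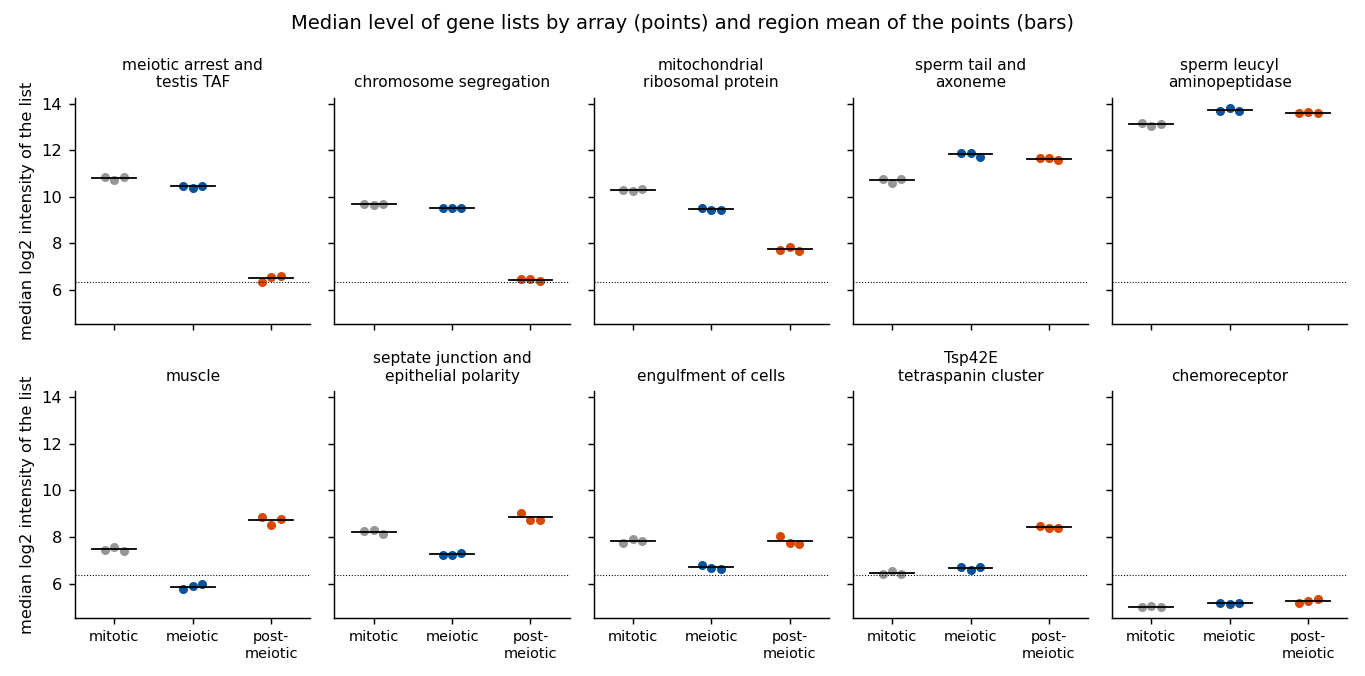
Median log2 intensity over the measured genes of 10 lists on each array (points) and the mean of these points (bar), in the order mitotic, meiotic and post-meiotic, with the floor of 6.36 dotted. Muscle, septate junction and engulfment medians are lowest in the meiotic arrays, and the Tsp42E cluster is highest in the post-meiotic arrays. The floor was set from the chemoreceptors in the meiotic and post-meiotic regions, so their median lies under it there by construction.

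Tetraspanins, small membrane proteins that gather other proteins, rose in most cases. Of 32 measured 23 rose and 4 fell (median 0.67), against 37% and 36.2% of all genes. In the Tsp42E cluster, whose genes lie side by side on chromosome arm 2R, 13 of 16 rose and none fell (median 1.24). This grouping was made after values were seen. Without suffixed probe sets 11 of 14 rose (median 0.645). Tsp42Eg read 9.98, 9.56 and 9.59 in the post-meiotic and 4.70, 5.03 and 4.92 in the meiotic arrays, 28.4-fold higher, and Tsp42Ed rose by 4.36. Their mitotic means were 6.02 for Tsp42Eg, under the floor, and 7.62 for Tsp42Ed, above it. Outside the cluster Tsp29Fb and Tsp74F rose by 2.54 each, while Tsp33B and Tsp42A fell by 2.72 and 2.50.

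Enzymes that handle foreign compounds rose in part. Of 81 cytochromes P450 51 rose, 21 of them by at least 1, and 6 fell, while 39 stayed under the floor in both regions (median 0.38). Among all genes 37% rose, 11.8% by at least 1, and 36.2% fell. After loess 40 of the cytochromes P450 were called higher and 6 lower. Cyp4p1 read 10.56, 10.37 and 10.66 in the post-meiotic and 6.84, 6.35 and 6.65 in the meiotic arrays, and Cyp4ac1 and Cyp12d1-d, both gained, rose by 3.80 and 3.68. Of 34 glutathione S-transferases 23 rose and 4 fell (median 0.67), GstD5 by 3.22 and GstD3 by 2.90, and GstO1 fell by 2.77. The metal-binding gene MtnA, chosen after values were seen, read 14.30, 14.30 and 14.21 in the post-meiotic and 10.52, 10.42 and 10.74 in the meiotic arrays and 13.47 as a mean in the mitotic region.

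Several genes of secreted proteins and signals rose by over 2 on the log2 scale. Of 6 chitinase-like growth factor genes, a list added after values were seen, 4 rose and none fell, and Idgf4 read 11.55, 11.64 and 11.38 in the post-meiotic and 6.93, 6.43 and 6.56 in the meiotic arrays (29.5-fold). Jhbp5, of a family named for binding juvenile hormone that was added in the same way, averaged 13.96 in the post-meiotic region, against 10.17 in the meiotic region, 13.8-fold higher. The BMP ligand dpp read 9.50, 8.96 and 8.96 in the post-meiotic and 4.98, 5.66 and 4.99 in the meiotic arrays (change 3.93, SE 0.19, adjusted p = 7.3e-10). hh, the Hedgehog ligand, averaged 7.31 in the post-meiotic region and was under the floor in the others, at 4.46 in the meiotic and 4.40 in the mitotic region. Toll-type receptors rose, Tollo by 3.75 and Tl by 2.89, as did the ligand gene spz5 by 3.29. In the list of secreted ligands and receptors, added after values were seen, 21 of 28 rose, 2 fell and 10 were gained (median 0.67), against 7.46% of all genes gained.

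Several of the 15 largest rises carry only a CG number. CG6357, on arm 2R, rose most, with 11.50, 11.32 and 11.49 in the post-meiotic and 4.72, 4.58 and 4.83 in the meiotic arrays, 106-fold (change 6.73, SE 0.12, adjusted p = 3.5e-13). CG42828, on 3R, read 10.37, 9.66 and 9.97 in the post-meiotic and 4.39, 4.31 and 4.32 in the meiotic arrays, and CG7778, on 2L, read 11.15, 10.96 and 10.95 and 5.55, 5.59 and 5.70 in that order. Their mitotic means were 7.32, 4.44 and 5.90, so CG42828 and CG7778 passed the floor in the post-meiotic region alone, with changes of 5.56 and 5.12 against the mitotic region (adjusted p = 2.2e-12 and 1.1e-13). CG16898 and CG33281 were instead high at the tip too, with mitotic means of 9.12 and 9.91. Others of the 15 were ana, a secreted glycoprotein of glia (4.85), Fim, an actin bundler (4.88), and Best2, a chloride channel of the bestrophin family (4.84). Probe sets of CG43897, also among them, disagreed, with changes from 0.03 to 5.39. Chosen after values were seen, the calcium exchanger gene Calx and the homeobox gene Lim1 averaged 9.05 and 8.05 in the post-meiotic region, against 4.58 and 3.96 in the meiotic region.

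Of 13 carbonic anhydrases, added after values were seen, 8 rose and 4 fell. CAH5 and CAH1 rose by 4.51 and 3.71, while CAH14 and CAH13 of the same family fell by 5.26 and 1.50. CAH5 read 11.99, 11.17 and 10.99 in the post-meiotic and 6.88, 6.82 and 6.93 in the meiotic arrays, and CAH14 6.23, 6.31 and 6.54 and 11.66, 11.67 and 11.51 in that order. Of 47 genes of solute transport 34 were under the floor in both regions, and 27 rose and 4 fell as deposited (median 0.27), but 15 and 6 after centring. The phosphate transporter Picot rose by 3.22 and MFS9 by 3.88.

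Markers of other tissues were measured to see which somatic cells the regions could hold. For the accessory gland, 21 of 27 genes were under the floor in both regions, against 27.4% of all genes. Of this list 5 rose and 1 fell, and its summed linear intensity was 1583 to 1899 on the post-meiotic and 1720 to 1907 on the meiotic arrays. SP, its sex peptide, and Acp26Aa were under the floor everywhere, and Acp36DE was instead lost, with 4.79, 4.71 and 4.78 on the post-meiotic and 8.43, 8.60 and 8.42 on the meiotic arrays. Of 8 measured genes of the ejaculatory duct and bulb 2 rose and 3 fell (median 0.08). EbpIII rose most, with 12.05, 11.65 and 11.64 in the post-meiotic and 8.46, 8.39 and 8.26 in the meiotic arrays. In the same list Ebp fell by 0.63 and bond by 1.65. In the fat body list 12 of 18 rose and 3 fell, against 37% and 36.2% of all genes, led by the lipocalin NLaz (4.29) and the transferrin Tsf1 (4.17). Of its defining genes Lsp2 fell by 0.74, while apolpp rose by 0.56 and Fbp1 by 0.38. Fbp1 averaged 6.49 in the post-meiotic and 6.11 in the meiotic region. Its call was lost after centring (adjusted p = 0.12) and after loess (adjusted p = 0.51). Of 47 odorant-binding proteins, which also occur outside sense organs, 28 were under the floor in both regions. As deposited 26 rose and 5 fell (median 0.26), but 14 and 7 after loess. Obp56d was gained (4.05) and Obp99a read 13.05, 12.84 and 12.86 in the post-meiotic and 11.47, 10.72 and 10.60 in the meiotic arrays.

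Further families with known roles outside the germline had small median changes. Of 35 UDP-glycosyltransferases 19 rose and 5 fell (median 0.26), and of 27 serpins, which block proteases, 16 rose and 4 fell (median 0.29). Among all genes 37% rose and 36.2% fell. Of 99 cuticular proteins 41 rose, 3 fell and 59 were under the floor in both regions, and after loess 26 rose and 11 fell. The share that rose as deposited, 41.4%, is near the 37% of all genes. Antimicrobial genes gave 9 rises and 0 falls of 12, 3 of the rises by at least 1, with Drsl5, a drosomycin relative, at 10.31 in the post-meiotic and 7.47 in the meiotic region as means. In the tracheal list 5 of 7 rose and 1 fell. Its chitin-binding gene Gasp averaged 8.36 in the post-meiotic and 5.93 in the meiotic region, and its defining receptor btl 6.78 and 6.29 in that order.

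Neuron and glia lists gave no full set of markers. Of 16 neuronal genes 10 were under the floor in both regions, and 8 passed as higher and 1 as lower (median 0.29), or 5 and 2 after loess. elav rose by 1.09 under the floor, nSyb rose by 2.08 and brp fell by 1.11. The summed linear intensity of the neuronal list was 2218 to 2716 on the post-meiotic and 1795 to 1968 on the meiotic arrays. Of 7 glial genes 4 rose and none fell (median 0.46). Their defining marker repo was at 4.61 in the post-meiotic and 4.50 in the meiotic region, while Gs2, a glutamine synthetase, rose by 3.26 and moody, a receptor of the blood-brain barrier, by 2.26. Of 17 hub and cyst cell genes 8 (47.1%) rose and 4 (23.5%) fell (median 0.25), against 37% and 36.2% of all genes. Those that rose include puc, a phosphatase of JNK signalling, by 2.15, nord by 1.55 and so, a partner of eya, by 0.68. Those that fell were Six4 (-0.78), CadN (-0.51), shg (-0.40) and the cyst marker zfh1 (-0.29). The call of zfh1 was lost when some single arrays were left out. The cyst marker tj averaged 6.15 in the post-meiotic and 6.06 in the meiotic region (adjusted p = 0.43), eya averaged 8.60 and 8.35 in that order (adjusted p = 0.07), and the hub ligand upd1 was under the floor in both. Of 14 pigment genes 4 rose, 4 fell and 5 were under the floor in both regions. The pigment transporter gene bw rose by 0.67 under the floor, while ca fell by 2.04. As a background for small rises, the 165 chemoreceptor genes had 55 calls higher and 12 lower as deposited (median 0.17) but 11 and 25 after loess, and none rose by at least 1.

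Of 2188 X-linked probe sets 39.9% rose and 30.7% fell, and of 11348 autosomal ones 36.4% rose and 34.4% fell. With a change of at least 1, 13.2% of X-linked probe sets rose and 15.4% fell, against 11.2% and 19.3% of autosomal ones. X-linked probe sets had a median change of 0.12 and autosomal ones of 0.09, and the median ranged from 0.05 on 2L to 0.11 on 2R among the large autosomal arms. Centring turned both medians negative (-0.02 and -0.06), and these shares were not tested.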

How the data were processed

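The authors hybridized RNA to Affymetrix Drosophila Genome 2.0 arrays and deposited log2 intensities after background correction by RMA and normalization between arrays by quantiles. These values were used without a further step. The 183 Affymetrix control probe sets of 18952 were set aside and 18769 were tested. Names and chromosome arms came from the annotation of the array, updated through a RefSeq gene table: 1 symbol was found for 13646 probe sets, several for 402 and none for 4721. The probe sets with 1 symbol cover 11981 genes, each represented in lists by its brightest probe set. A list gene without a probe set under its name was not analysed here.

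The 3 regions were fitted with limma 3.58.1 (lmFit and eBayes, R 4.3.3) over all 9 arrays, with the contrast post-meiotic minus meiotic and Benjamini-Hochberg adjustment over all probe sets at 0.05. Tables and figures were made with Python 3.11.15, numpy 2.4.6, pandas 2.3.3 and matplotlib 3.10.9. The code was tested on simulated data.

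Named are, among called probe sets of a single gene whose arrays do not overlap between the regions, the 15 largest rises and 15 largest falls and the 10 largest changes among gained and among lost, then the 10 kept with the highest post-meiotic mean, and from each list up to 5 members with the largest absolute change and those that define a cell type. The comparison, the members and the lists were chosen with earlier results of these data known, and genes, lists and relatives said to be added were chosen after their values were seen. Alternatives were centred arrays, cyclic loess, a fit to the 6 arrays, a filter on dim probe sets, and other floors and bands. Further ones were the brightest probe set of each gene alone and removal of probe sets with names ending in _s_at, _x_at or _a_at. The replicate number was also used as a block, and the arrays were left out in turn. The number of arrays limits the precision, and p-values measure the spread between the biological replicates. Raw array files and sequences were not used here.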

Additional observations from a re-analysis of the deposited data

How the results depend on the processing

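The number of probe sets called higher was 4565 with each array centred on its median and 4450 with 1 probe set per gene, against 7100 as deposited. Without suffixed probe sets 1165 were higher by at least 1, and the median change was -0.0174 after centring. With the floor at the 75th percentile of the chemoreceptors 508 probe sets were lost. After loess 798 were gained, and 4597 were kept with a band of 1. Of these, the rise under a wider band and the smaller counts from fewer probe sets follow from the settings. Centring moves every change by the same amount, so the lower median follows from it too, and its rises were counted on the moved changes. The cause of the others was not tested. Leaving out 1 array gave 5808 to 7853 higher and 4938 to 5253 lower, 1693 to 1854 and 2765 to 2865 of them by at least 1, a median change of 0.11 to 0.15, and 854 to 901 lost, 1209 to 1432 gained and 1593 to 1853 kept. Same-numbered arrays of the regions deviated together at r = -0.09 to 0.08, so the numbers are not taken as pairs, and a replicate block gave 7137 higher and 5242 lower. Of 349 calls among the named probe sets 325 held under every alternative and 24 were lost under at least 1, none of the 274 with a change of at least 1; after centring 14 and after loess 12 were lost. The fall of Lsp2 was lost after loess (adjusted p = 0.085), the rise of kl-3 also without meiotic replicate 3 (adjusted p = 0.085), and after loess the changes of ddbt and CG17376 turned to 0.0852 and -0.0123. The median kept its sign under each alternative for 49 of 63 lists; among the 14 others are the sperm chromatin, comet and cup, individualization, translation factor, integrin, accessory gland and chemoreceptor lists. Of 1094 genes with several probe sets 108 had opposite calls, among them chinmo (-2.84 and 0.27), milt (-1.44 and 1.51) and msl-3 (-2.40 and 0.71).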
